A study of Mus musculus with 4 samples.

Results

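The 32 genes examined here encode the working parts of the unfolded protein response and of protein folding in the endoplasmic reticulum (ER), and they were taken from a list of names out of the 31053 genes in each count table. All 32 had a row in each of the 4 tables. By role, 15 are chaperones and folding enzymes of the ER, 7 act in ER-associated degradation (ERAD), 3 are sensors or their immediate effector (Xbp1, Atf6 and Ern1), 6 belong to the arm of the transcription factor ATF4, and 1, Sec61b, is a subunit of the translocon through which new proteins enter the ER.

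Cells that secrete much protein load the ER with unfolded chains, and the unfolded protein response matches folding capacity to that load. The sensor IRE1, the product of Ern1, splices the Xbp1 mRNA, and XBP1 together with cleaved ATF6 raises chaperones and ERAD genes. The kinase PERK slows translation and lets ATF4 be made, which raises genes of amino acid synthesis and, under lasting stress, Ddit3 (CHOP). Plasma cells are the best known case of a cell type that depends on XBP1, and fibroblasts need ER enzymes to fold and cross-link collagen.

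The study took cells from a prostate cancer graft and from subcutaneous adipose tissue (SAT) of mice labelled with the genotype VFB (FVB mice on chow, according to the methods), and asked how a peptide, D-CAN, that targets adipose stromal cells (ASC) changes tumor and fat. The graft was made subcutaneously with MycCap cells, a line derived from HiMyc mice, in which c-Myc is over-expressed in the prostate. There was 1 library for each of 4 groups, which were tumor from control mice given PBS, tumor from mice given D-CAN, SAT from control mice, and SAT from mice given D-CAN. Every library had been depleted of dead cells with magnetic beads and of red blood cells, and was made with the 10x Genomics kit for 3′ ends; the age of the mice and whether a library holds several mice were not given in the sources used here.

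With 1 library per group no test between libraries could be made. Levels are therefore totals of unique molecular identifiers (UMIs) in a class of cells, scaled to 1e+06 UMIs of that class (CPM), and every interval is a 95% interval of counting error only. A gene is called higher or lower where the ratio of CPM passes 1.5-fold with at least 20 UMIs in the cells compared, and in comparisons of cell classes it had to pass in the control library and in the D-CAN library separately. Where a pair of values is given without more words, the control library comes first and the D-CAN library second. UMIs of a 3′ kit count molecules and were not divided by gene length.

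The 4 libraries held 1525 to 2851 cells and 6667064 to 17996284 UMIs, with a median of 1700 to 4855 UMIs per cell. The libraries shared 0 to 2 cell barcodes pairwise. Classes were named from marker genes after clustering without the 32 members. The tumor held cancer-like cells (1348 and 688 in the control and D-CAN library), macrophage-like, endothelial-like, fibroblast-like (84 and 66) and perivascular-like cells, and 11 of 13 markers of the cancer-like class had a UMI there, with a summed level of 5010 and 5487 CPM. In the other tumor classes those markers reached 5.6 to 8.11% of that level in the control library and 2.09 to 3.7% in D-CAN. SAT held B cell-like (657 and 627), T cell-like, dendritic-like, macrophage-like, neutrophil-like, endothelial-like, fibroblast-like (292 and 87) and perivascular-like cells, and an unnamed cluster 8 (149 and 56 cells) led by Slpi and by genes of dividing cells such as Mki67 and Top2a. No cluster met the rule for plasma cells. Immunoglobulin (Ig) secreting cells were instead set apart cell by cell, as those with at least 2% of their UMIs from 6 Ig genes and a UMI of Jchain, and numbered 17 in control SAT and 5 in D-CAN SAT. The lowest Ig share among them was 2.68% in control and 5.84% in D-CAN, and 0 other cells with Jchain lay between 1 and 2%. Median depth differed between the SAT libraries, at 877.5 and 4739 UMIs per fibroblast-like cell, and between classes, at 10632.5 and 18182.5 UMIs per cancer-like cell against 1454 and 2135.5 per tumor macrophage-like cell.

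Promoters of some members carry known elements of the response, and the sites found are shown. Other members had none of the motifs searched, and the ERAD gene Herpud1 had elements of different kinds. The motifs therefore do not sort every member by arm. RefSeq promoters of build GRCm38.p6, from 250 bases before to 50 bases after the start of transcription, were available for 28 of the 32 members, all but Manf, Hyou1, Derl1 and Atf6. The ER stress element (ERSE; CCAAT and CCACG with any 9 bases between them, bound by NF-Y, ATF6 and XBP1) was searched on both strands. It occurred in 39 of 32851 mouse promoters (0.119%), and those of 9 members were among them. The ERSE sites are written 5′ to 3′ in the direction of the motif, with its fixed letters in capitals:

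Hspa5 (chr2:34772025-34772043): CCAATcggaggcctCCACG
Hsp90b1 (chr10:86705638-86705656): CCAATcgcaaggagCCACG
Hsp90b1 (chr10:86705533-86705551): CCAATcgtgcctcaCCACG
Pdia6 (chr12:17266491-17266509): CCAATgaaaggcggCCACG
Calr (chr8:84847075-84847093): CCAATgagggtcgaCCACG
Canx (chr11:50325800-50325818): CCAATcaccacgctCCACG
Dnajc3 (chr14:118937827-118937845): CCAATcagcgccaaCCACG
Creld2 (chr15:88819520-88819538): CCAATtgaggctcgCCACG
Syvn1 (chr19:6046532-6046550): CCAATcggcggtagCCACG
Derl3 (chr10:75893242-75893260): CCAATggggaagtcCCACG

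An ERSE stood in 7 of the 13 chaperone promoters, and none of the 6 ATF4-arm genes had the motif in this window. The shorter ERSE-II (ATTGG and CCACG with any 1 base between them), present in 12 promoters (0.0365%), was found at Herpud1 and Dnajb11. The element bound by C/EBP and ATF factors (CARE; TGATG, any 1 base, then AA), present in 1304 promoters (3.97%), was found at Trib3, Chac1 and Asns, all of the ATF4 arm, and at Herpud1, and in none of the 13 chaperone promoters. The sites were:

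Herpud1, ERSE-II (chr8:94386377-94386387): ATTGGgCCACG
Dnajb11, ERSE-II (chr16:22857852-22857862): ATTGGcCCACG
Herpud1, CARE (chr8:94386317-94386324): TGATGcAA
Trib3, CARE (chr2:152344039-152344046): TGATGtAA
Chac1, CARE (chr2:119351049-119351056): TGATGcAA
Asns, CARE (chr6:7693225-7693232): TGATGaAA

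No promoter held ERSE together with ERSE-II or with CARE, and 1 promoter held ERSE-II and CARE. A matching site is a match of letters, and binding was not measured. The 250 bases before the start are printed for Hspa5, the chaperone that also holds the sensors inactive, and for Chac1, an ATF4 target that degrades glutathione. Both lie on the plus strand of chromosome 2, at chr2:34771840-34772089 and chr2:119350992-119351241, and capitals mark the ERSE of Hspa5 and the CARE of Chac1, the latter read on the opposite strand:

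Hspa5: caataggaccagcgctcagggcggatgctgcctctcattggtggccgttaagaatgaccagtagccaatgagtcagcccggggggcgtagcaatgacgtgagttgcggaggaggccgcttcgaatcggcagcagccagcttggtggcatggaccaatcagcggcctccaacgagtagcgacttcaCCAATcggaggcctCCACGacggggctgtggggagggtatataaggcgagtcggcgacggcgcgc
Chac1: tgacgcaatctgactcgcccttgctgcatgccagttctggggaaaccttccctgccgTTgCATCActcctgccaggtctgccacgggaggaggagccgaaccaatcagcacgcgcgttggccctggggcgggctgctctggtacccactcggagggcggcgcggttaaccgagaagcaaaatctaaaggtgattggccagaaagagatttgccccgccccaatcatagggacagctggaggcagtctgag

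Among the 5 named classes of the tumor, chaperone mRNA was highest in cancer-like cells and lowest in endothelial-like cells. The 15 chaperones summed to 7472 and 7839 CPM in cancer-like cells, 7051 and 6445 CPM in fibroblast-like cells, 6064 and 5610.4 CPM in perivascular-like cells, 4345 and 3962 CPM in macrophage-like cells and 4100.4 and 3001 CPM in endothelial-like cells. The order of the 5 classes was the same in both libraries, although macrophage-like and endothelial-like cells lay close to each other in control. The ATF4 arm gave another order, with 307 and 317 CPM in cancer-like cells, below the 466 and 406 CPM of perivascular-like and the 464 and 433 CPM of endothelial-like cells. Chaperone UMIs exceeded ATF4-arm UMIs 24.3-fold and 24.8-fold in cancer-like cells, 13.1-fold and 13.4-fold in macrophage-like cells and 8.84-fold and 6.93-fold in endothelial-like cells. After each cell was thinned to 1000 UMIs, the median cancer-like cell had 6 and 7 chaperone UMIs and the median macrophage-like cell 4 and 3, with 1337 and 687 cancer-like and 459 and 346 macrophage-like cells deep enough to be used, and 11 and 1 and 181 and 80 cells left out. The class difference was thus also seen at equal depth.

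**Figure D1:**
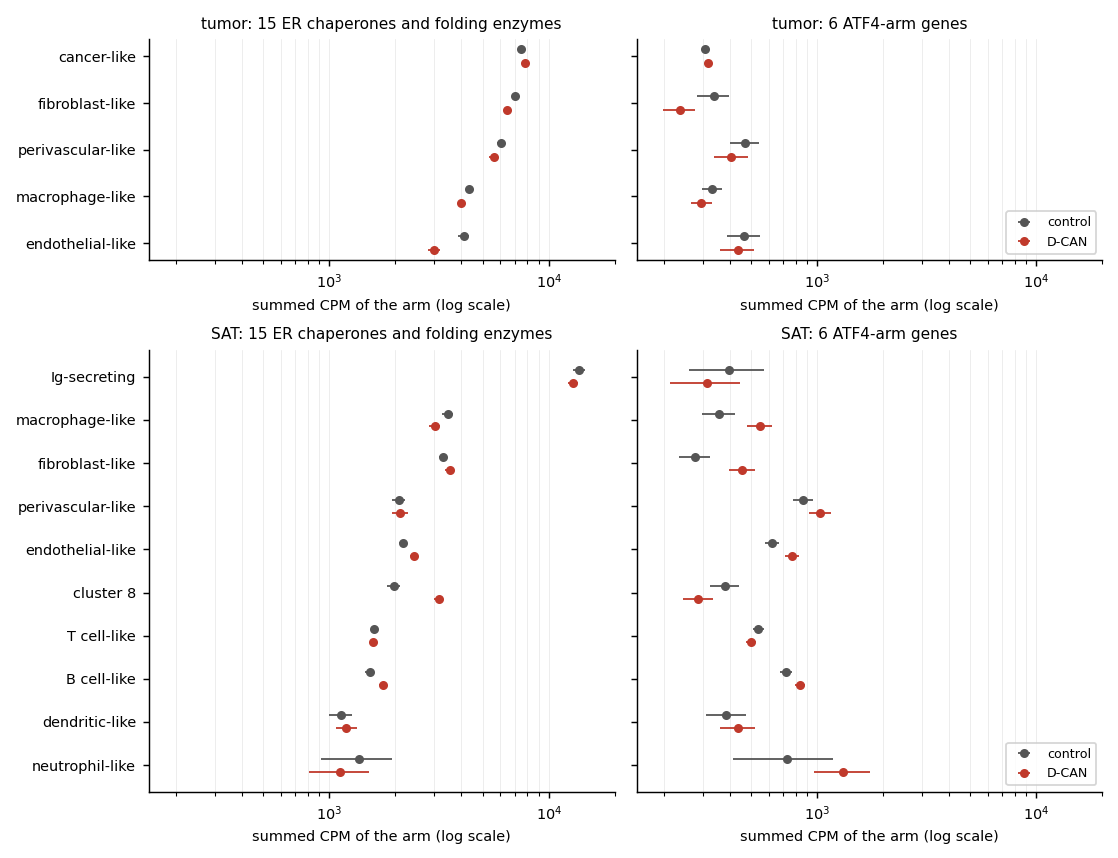
Summed CPM, on a log scale, of the 15 ER chaperones and folding enzymes (left) and of the 6 ATF4-arm genes (right) in each class of tumor (top) and SAT (bottom). Points are single libraries, control in grey and D-CAN in red, and bars are 95% counting intervals; Ig-secreting cells lie farthest right in the chaperone panel, at 13720.4 and 12902 CPM, and not in the ATF4 panel.

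Single chaperones differed in the class where they were highest. Hspa5 (BiP), the main Hsp70 of the ER, stood at 1096 and 1140.1 CPM in cancer-like, 1267 and 901 CPM in fibroblast-like, 1272 and 1041 CPM in perivascular-like, 852 and 567 CPM in endothelial-like and 743 and 687 CPM in macrophage-like cells. Fibroblast-like and perivascular-like cells lay above cancer-like cells in control and below them in D-CAN, by less than 1.5-fold in each case. In control, 9 of the 15 chaperones were highest in cancer-like cells, and in D-CAN 10 were. No share over all genes stands beside these counts, so they only describe the listed chaperones. Calreticulin (Calr), which folds glycoproteins and stores calcium, took the largest share of the chaperone UMIs of cancer-like cells.

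**Figure D2:**
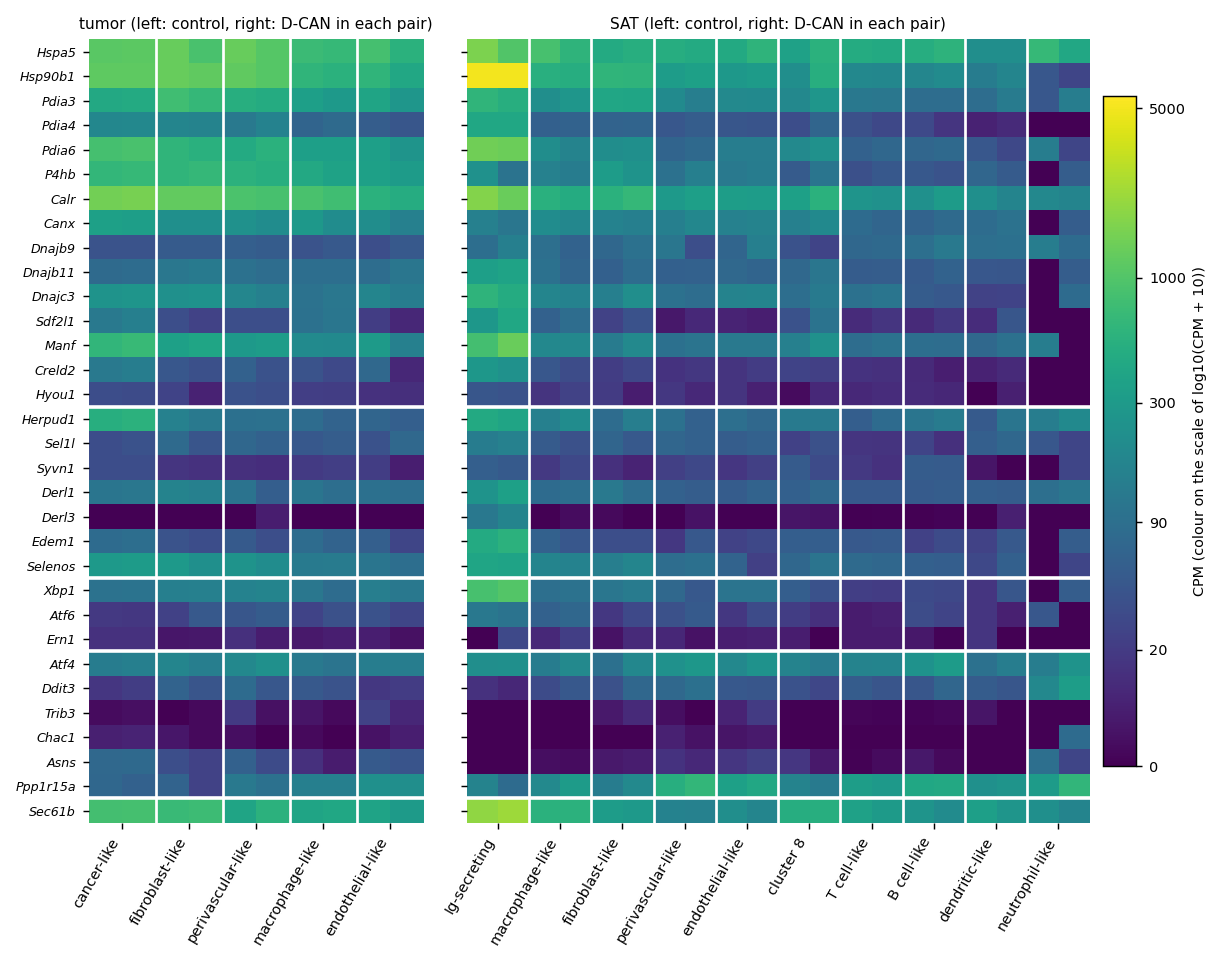
Level of each of the 32 members (rows, grouped by white lines into chaperones, ERAD, sensors, ATF4 arm and translocation) in each class, with control on the left and D-CAN on the right of each pair of columns; color is CPM on the scale of log10(CPM + 10). Hsp90b1 in Ig-secreting cells is the brightest row, at 5079 and 5041 CPM, and Derl3 is near 0 outside them.

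Against macrophage-like cells, cancer-like cells were higher in 14 and lower in 2 of the 31 members with enough UMIs, where 29.7% of all genes compared were higher and 25.2% lower. Only Derl3, a degradation factor of secretory cells, had too few UMIs. The median log2 ratio of the members was 0.56 and 0.73, against 0.10 and 0.14 over all genes compared. The chaperone sum differed by a log2 ratio of 0.78 (95% interval 0.74 to 0.82) and 0.98 (0.94 to 1.03), and the 7 chaperones called were Hsp90b1, Pdia4, Pdia6, Calr, Dnajc3, Manf and Creld2. Creld2, a folding factor of the ER, had 119 and 136 CPM in cancer-like and 40.0 and 30.4 CPM in macrophage-like cells, with log2 ratios of 1.56 and 2.14. Manf, a secreted protein that binds BiP, had 644 and 708 CPM against 196 and 194 CPM (log2 ratios 1.71 and 1.87). The other 8 chaperones did not pass 1.5-fold in both libraries. Hspa5 gave log2 ratios of 0.56 and 0.73. The lectin Canx gave 0.31 and 0.73, the BiP-related Hyou1 0.64 and 0.55, and the BiP co-chaperones Dnajb9 and Dnajb11 lay near 0, from -0.25 to -0.04.

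Of the 6 ERAD genes compared, Herpud1, Selenos and Syvn1 were higher in cancer-like than in macrophage-like cells. The ERAD sum differed by a log2 ratio of 1.21 (95% interval 1.09 to 1.34) and 1.44 (1.31 to 1.57), and Herpud1, which organizes the ERAD complex, made up 48.7% of the ERAD UMIs of control cancer-like cells. Herpud1 stood at 526 and 569.6 CPM in cancer-like cells and at 82.7 and 65.2 CPM in macrophage-like cells, log2 ratios of 2.66 and 3.12. Without Herpud1 the ERAD sum gave 0.53 (95% interval 0.39 to 0.67) and 0.70 (0.55 to 0.85), so that this 1 gene carried much of the difference. Selenos, a selenoprotein of the ERAD channel, and Syvn1 (HRD1), its ubiquitin ligase, were the other two called. Selenos gave log2 ratios of 1.23 and 1.24, and Syvn1 of 0.78 and 0.60. The partner of the ligase, Sel1l, gave -0.44 and -0.47. Derl1, a channel subunit, and Edem1, which picks out misfolded glycoproteins, lay between -0.03 and 0.44 and were not called.

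Within the ATF4 arm the genes split. Asns, asparagine synthetase, had 75.7 and 78.1 CPM in cancer-like and 14.2 and 6.25 CPM in macrophage-like cells, and Chac1 had 7.53 and 8.93 CPM in cancer-like cells against 2 UMIs in control and 0 in D-CAN macrophage-like cells. Both were called higher, and both passed the least UMIs only through cancer-like cells. The Chac1 count of 0 in D-CAN only limits the macrophage-like level to 2.68 CPM. Ddit3, the stress factor CHOP, was lower at 17.5 and 21.6 CPM against 48.9 and 41.1 CPM. Ppp1r15a (GADD34), which reverses the block of translation and is also an immediate early gene, was lower at 72.3 and 62.2 CPM against 142 and 144 CPM. Atf4 itself stood at 132 and 143 CPM in cancer-like and 121 and 104 CPM in macrophage-like cells and was not called, and the sum of the arm gave log2 ratios of -0.12 (95% interval -0.27 to 0.04) and 0.09 (-0.07 to 0.26), whose intervals include 0.

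The sensors were present at low levels and the translocon subunit at a high level. Xbp1 stood at 98.7 and 101 CPM in cancer-like and 112 and 84.0 CPM in macrophage-like cells. Atf6 stood at 18.4 and 17.7 CPM against 25.8 and 37.5 CPM, and Ern1 at 14.6 and 14.7 CPM against 5.34 and 7.15 CPM. Of these only Ern1 passed the threshold, with 6 and 8 UMIs in macrophage-like cells. It passed the least UMIs only through cancer-like cells (215 and 188 UMIs). Sec61b was higher, at 834 and 851 CPM against 397 and 428 CPM. The Xbp1 count does not tell the spliced from the unspliced mRNA, so activity of IRE1 was not measured.

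Wider gene lists of the same pathways were counted beside the members. Of 32 further genes of ER folding and translocation, 16 of 32 compared were higher in cancer-like than in macrophage-like cells and 2 lower, among the latter Sec11c, a subunit of the signal peptidase, and Eif2ak3 (PERK). Of 23 further ATF4 targets 14 of 21 were higher, led by genes of serine and one-carbon metabolism such as Phgdh at 257 and 267 CPM against 29.3 and 17.9 CPM, Mthfd2 and Shmt2. Atf3, another stress factor, was the 1 lower. Genes of tissue dissociation and heat shock went mostly the other way, with 3 of 15 higher and 8 lower, and their part in the lower Ddit3 and Ppp1r15a was not tested.

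Collagen-producing fibroblast-like cells of the tumor had nearly the chaperone level of cancer-like cells but another set of ER helpers. Of 31 members compared, 1 was higher and 9 were lower than in cancer-like cells, where 25.6% of all genes were higher and 22.9% lower. The chaperone sum gave log2 ratios of -0.08 (95% interval -0.14 to -0.03) and -0.28 (-0.33 to -0.24), and no chaperone was called higher. Canx, Sdf2l1, Manf and Creld2 were lower, and so were Herpud1, Syvn1, Edem1, Ern1 and Asns. Ern1, Syvn1 and Sdf2l1 were among those that passed the least UMIs only through cancer-like cells. In fibroblast-like cells Ern1 had 2 and 3 UMIs and Syvn1 7 and 9 UMIs. The control interval of Ern1 there (0.58 to 17.2 CPM) includes the cancer-like level of 14.6 CPM. Sdf2l1, a cofactor of BiP, had 35.7 and 24.9 CPM in fibroblast-like and 119 and 145 CPM in cancer-like cells. Herpud1 had 152 and 118 CPM in fibroblast-like cells, log2 ratios of -1.78 and -2.26.

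Ddit3 was the member called higher, at 64.2 and 43.2 CPM in fibroblast-like cells against 17.5 and 21.6 CPM. Pdia3, a disulfide isomerase that works with calreticulin, had 792 and 675 CPM in fibroblast-like and 442 and 471 CPM in cancer-like cells. P4hb, which is both an isomerase and a subunit of collagen prolyl hydroxylase, had 618 and 661 CPM and 646 and 686 CPM. Neither passed 1.5-fold in both libraries. In fibroblast-like cells Xbp1 stood at 143 and 146 CPM (log2 ratios over cancer-like cells 0.54 and 0.54). Atf4 stood at 169 and 139.6 CPM (log2 ratios 0.36 and -0.03).

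The list of collagen processing genes, by contrast, was higher in fibroblast-like cells in 17 of 17 genes compared, with a sum 12.3 and 12.4-fold that of cancer-like cells. Serpinh1 (HSP47), the collagen-specific chaperone of the ER, had 1769 and 1875 CPM against 1.36 and 1.33 CPM, and Rcn3 and P4ha3 were also among the most different. Of 21 further ATF4 targets 10 were lower in fibroblast-like cells and 2 higher. Slc7a11, the cystine importer, had no UMI in fibroblast-like cells and 30.5 and 26.0 CPM in cancer-like cells. Cancer-like markers in fibroblast-like cells reached 7.78 and 2.21% of their level in cancer-like cells.

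Against macrophage-like cells, fibroblast-like cells were higher in 10 and lower in 3 of 28 members, beside 22.1% and 20.6% of all genes. The chaperone sum gave log2 ratios of 0.70 (95% interval 0.63 to 0.76) and 0.70 (0.64 to 0.76). Hsp90b1 (GRP94), the Hsp90 of the ER, was among those higher, at 1293 and 1189.9 CPM against 622 and 560.1 CPM. Sdf2l1, Edem1 and Ppp1r15a were lower, and of these Sdf2l1 and Edem1 were also lower in fibroblast-like than in cancer-like cells.

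Endothelial-like cells of the tumor were lower than cancer-like cells in 14 and higher in 3 of 31 members, beside 19.6% and 29.3% of all genes. The 10 lower chaperones included Hsp90b1, Calr, Pdia6 and P4hb, and the sum of all 15 gave log2 ratios of -0.87 (95% interval -0.95 to -0.78) and -1.38 (-1.48 to -1.29). Herpud1, at 68.3 and 58.4 CPM, was lower as well. The genes called higher were Atf6, Ppp1r15a and Trib3, a pseudokinase induced by ATF4, and Trib3 had 7 and 3 UMIs, or 25.2 and 10.3 CPM, in endothelial-like against 1.90 and 2.90 CPM in cancer-like cells. Atf6 had 11 and 8 UMIs, or 39.6 and 27.5 CPM, in endothelial-like against 18.4 and 17.7 CPM in cancer-like cells. In D-CAN the 95% interval of the endothelial-like level of Atf6 (11.9 to 54.2 CPM) includes the cancer-like level. The D-CAN interval of the endothelial-like level of Trib3, on 3 UMIs, includes the cancer-like level too. Ppp1r15a had 230.2 and 217 CPM in endothelial-like cells. Perivascular-like and fibroblast-like cells of the tumor differed in 1 gene higher in the former (Ppp1r15a) and 1 lower (Derl1) of 26, beside 8.2% and 10.3% of all genes. Fibroblast markers in tumor perivascular-like cells stood at 32.9 and 44.5% of their level in fibroblast-like cells, and their part in the similarity was not tested.

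In SAT the Ig-secreting cells held more chaperone mRNA than any other class. The chaperones summed to 13720.4 and 12902 CPM there, against 3466 and 3018 CPM in macrophage-like, 3294 and 3534 CPM in fibroblast-like, 2171 and 2433 CPM in endothelial-like, 2072 and 2099.8 CPM in perivascular-like, 1597 and 1588 CPM in T cell-like, 1524 and 1746 CPM in B cell-like and 1128 and 1193 CPM in dendritic-like cells, and with 1960.2 and 3148 CPM in cluster 8 and 1359 and 1121 CPM in neutrophil-like cells. These 17 and 5 cells were chosen by Ig genes and Jchain and not by any member. Plasma cell markers summed to 76732 and 133956 CPM in them and to 2489 and 2665 CPM in B cell-like cells. This sum includes the Ig genes and Jchain by which the cells were chosen. Its difference therefore followed in part from the rule and does not test what the cells are. Mzb1, a BiP partner of plasma cells that was not in the rule, had a UMI in 16 of 17 and in 5 of 5. B cell markers were at 7.7 and 7.84% of their level in B cell-like cells.

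Of 26 members compared with B cell-like cells, 20 were higher and 2 lower in Ig-secreting cells, beside 11.4% and 27.7% of all genes. The chaperone sum differed by log2 ratios of 3.17 (95% interval 3.06 to 3.28) and 2.89 (2.79 to 2.98), and the median member differed by log2 ratios of 2.80 and 2.67 where the median gene differed by -0.14 and -0.71. Hsp90b1 led, at 5079 and 5041 CPM against 172 and 200.1 CPM, and made up 37.0 and 39.1% of all chaperone UMIs of these cells. In B cell-like cells the leading chaperone was Hspa5 with 32.9 and 33.3%. Hspa5 had 1620.2 and 994 CPM in Ig-secreting and 501 and 582 CPM in B cell-like cells, so that GRP94 differed far more between these classes than BiP did.

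Xbp1, the factor on which plasma cells depend, had 890.4 and 1014 CPM in Ig-secreting and 31.7 and 29.4 CPM in B cell-like cells, log2 ratios of 4.81 (95% interval 4.23 to 5.41) and 5.10 (4.60 to 5.63). The ERAD genes other than Syvn1 had higher CPM in the same cells. Syvn1 was level, at 58.4 and 50.7 CPM against 53.0 and 51.7 CPM. Edem1 had 467 and 568 CPM against 24.3 and 32.5 CPM. Derl3 had 8 and 16 UMIs, or 117 and 162 CPM, where B cell-like cells had 0 and 1 UMI, and it stayed under the 20 UMIs needed for a call. Every other class of SAT had at most 2 UMIs of Derl3. Among the chaperones, Sdf2l1 had 277 and 426 CPM against 11.0 and 18.0 CPM and Creld2 277 and 233 CPM against 11.0 and 7.21 CPM. Pdia6 stood at 1416 and 1339 CPM against 70.7 and 77.5 CPM, so that cofactors at low levels in B cell-like cells were among the most different. Sec61b had 1941 and 2242 CPM against 256 and 203 CPM.

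The ATF4 arm did not go with the chaperones in these cells. Atf4 had 219 and 223 CPM in Ig-secreting and 241 and 314 CPM in B cell-like cells, and Ddit3 and Ppp1r15a were the members called lower. Ppp1r15a had 161 and 81.1 CPM against 430.0 and 446 CPM. Ddit3 had 1 UMI in the Ig-secreting cells of each library, and its log2 ratios were -1.05 (95% interval -6.95 to 0.91) and -2.24 (-8.13 to -0.31). The control interval includes 0, and the gene passed the least UMIs only through B cell-like cells (61 and 119 UMIs). Trib3, Chac1 and Asns had no UMI in any of the 22 Ig-secreting cells, where a count of 0 only limits the level to 43.8 and 30.4 CPM. B cell-like cells were near 0 as well, with 1 and 2 UMIs of Trib3, 0 and 0 of Chac1 and 7 and 3 of Asns. These 0 counts therefore do not separate the classes. Chaperone UMIs of Ig-secreting cells exceeded their ATF4-arm UMIs 34.8-fold and 41.0-fold, against 2.11-fold and 2.09-fold in B cell-like cells.

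**Figure D3:**
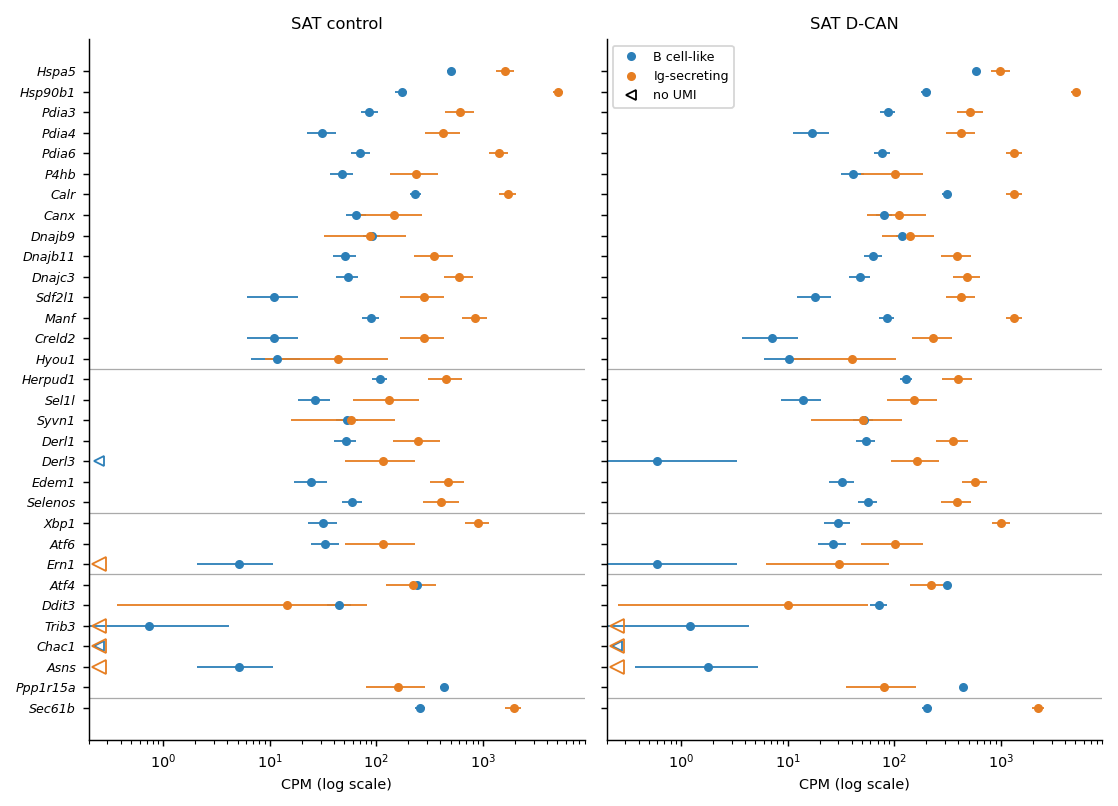
CPM, on a log scale, of each member in B cell-like (blue) and Ig-secreting (orange) cells of control SAT (left) and D-CAN SAT (right), with 95% counting intervals; open triangles stand for no UMI. Most chaperone and ERAD genes lie to the right in Ig-secreting cells, Hsp90b1 farthest at 5079 and 5041 CPM, while the ATF4-arm genes at the bottom do not. Dnajb9 (87.6 and 142 CPM against 90.6 and 120 CPM in B cell-like cells) and Syvn1 lie close together in the 2 classes.

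These values rest on few cells. The deepest Ig-secreting cell held 61.0% of the UMIs of the class in control and 36.7% in D-CAN. In both libraries this cell lay in cluster 8, had 31 and 16 UMIs of Mki67, and had the lowest Ig share (2.68 and 5.84%). Of the Hsp90b1 UMIs of the class it held 264 of 348 in control and 303 of 497 in D-CAN. Without it the chaperone sum was 8985 and 9022 CPM, so that the control value moved by over 1.5 times, and 20 of 26 members were higher than in B cell-like cells. Without it Xbp1 stood at 1348 and 1074 CPM and Hsp90b1 at 3145 and 3109 CPM, while Pdia3 stood at 149.8 and 353 CPM instead of 613 and 517 CPM. The median chaperone level of single Ig-secreting cells was 11454 and 10187 CPM. Median depth of the class was 829 UMIs in control and 17380 in D-CAN, and at 1000 UMIs per cell the median was 13.5 chaperone UMIs in 6 control cells and 13 in 5 D-CAN cells, with 11 control cells left out, against 1 in B cell-like cells of each library (574 and 593 used, 83 and 34 left out).

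Fibroblast-like cells of SAT were richer in chaperones than B cell-like cells. Against B cell-like cells 14 members were higher and 3 lower of 27, beside 30.1% and 20.1% of all genes. The 10 chaperones called included P4hb, at 321 and 247 CPM against 47.9 and 40.9 CPM, Hsp90b1 at 625 and 602 against 172 and 200.1 CPM, and Calr at 554 and 671 against 233 and 310.1 CPM. Hspa5 did not pass the threshold, at 468 and 516 CPM in fibroblast-like and 501 and 582 CPM in B cell-like cells. Xbp1 was higher at 109 and 130.1 against 31.7 and 29.4 CPM. Atf4 was lower, at 93.2 and 176 CPM against 241 and 314 CPM, and so were Ppp1r15a, at 134 and 187 CPM against 430.0 and 446 CPM, and Syvn1. Cells of 1 fibroblast-like cluster (30 cells) came from the control library alone.

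Compared with fibroblast-like cells, Ig-secreting cells were higher in 17 and lower in 1 of 24 members, beside 8.08% and 42.4% of all genes. P4hb and Pdia3 were not among those called. P4hb had 234 and 101 CPM in Ig-secreting and 321 and 247 CPM in fibroblast-like cells, and Pdia3 had 613 and 517 CPM and 418 and 404 CPM. Ddit3 was the member called lower, with log2 ratios of -0.82 (95% interval -6.74 to 1.27) and -2.28 (-8.19 to -0.26). It had 1 UMI in the Ig-secreting cells of each library and passed the least UMIs only through fibroblast-like cells (21 and 33 UMIs). The control interval includes 0, so a lower level in Ig-secreting cells is not shown there.

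Perivascular-like cells of SAT had fewer chaperone and more ATF4-arm UMIs than fibroblast-like cells, with 3 members higher and 8 lower of 23, beside 21.2% and 13.7% of all genes. Those higher were Atf6, Atf4 and Ppp1r15a, and Ppp1r15a reached 526 and 646 CPM. Atf6 had 15 and 14 UMIs in perivascular-like and 10 and 14 UMIs in fibroblast-like cells. Its log2 interval includes 0 in both libraries. Hsp90b1, Pdia3, Pdia6, P4hb and Calr were lower. Macrophage-like cells of SAT were higher than T cell-like cells in 18 and lower in 0 of 27 members, beside 26.1% and 10.9% of all genes, with Hsp90b1 at 534 and 511 against 182 and 179 CPM and Xbp1 at 91.8 and 97.7 against 22.1 and 21.0 CPM. Cluster 8 was higher than B cell-like cells in 10 members, Pdia6 and Manf among them, and lower in 2, Dnajb9 and Ppp1r15a, of 26, beside 27.6% and 13.4% of all genes.

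Across the classes the chaperone and the ATF4 arm did not follow the same order. Spearman's rho between the arms' levels was -0.50 in each tumor library over 5 classes, and -0.39 and -0.56 in the SAT libraries over 10 classes, while the chaperone and ERAD arms gave 1 in each tumor library and 0.87 and 0.54 in SAT. The classes of a library share its chemistry and free RNA, and these values only describe the order. In SAT the order of the ATF4 arm went with that of the dissociation and heat shock list, at 0.73 and 0.89, while in tumor the same value was -0.20 and 0.70. Ppp1r15a, an early response gene, led the ATF4 arm in most SAT classes, where Atf4 led it in cancer-like cells, in fibroblast-like and perivascular-like cells of the tumor, in cluster 8 and in Ig-secreting cells. The part of tissue dissociation in the ATF4-arm levels was not tested.

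The same named classes were also compared between tumor and SAT, where tissue and library cannot be told apart. Fibroblast-like cells were higher in tumor in 9 and lower in 1 of 25 members, beside 16% and 12.3% of all genes. Hspa5 stood at 1267 and 901 CPM in tumor and 468 and 516 CPM in SAT. Pdia6 stood at 623 and 542 CPM in tumor and 215 and 225 CPM in SAT, and Manf at 357 and 401 CPM and 129 and 185 CPM. All members called higher were chaperones apart from Sec61b, and the member called lower was Ppp1r15a, at 64.2 and 24.9 CPM in tumor and 134 and 187 CPM in SAT.

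Perivascular-like cells had the most members called between tissues, with 12 members higher and 1 lower of 23, beside 16.8% and 19.7% of all genes. Pdia6, an isomerase, had 466 and 556 CPM in tumor and 66.7 and 76.2 CPM in SAT. Xbp1 was higher there as well, at 155 and 164 against 74.4 and 47.1 CPM. In endothelial-like cells 6 members were higher and 3 lower of 26, beside 12.2% and 11.8%, and in macrophage-like cells 3 were higher and 2 lower of 27, beside 10.2% and 11%.

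Pdia6, P4hb and Calr were higher in tumor in all 4 classes. The lower members were Dnajb9, a BiP co-chaperone, with Ddit3 and Ppp1r15a in endothelial-like cells, and Herpud1 and Atf6 in macrophage-like cells. In each class no gene of the dissociation and heat shock list was higher in tumor and 6 to 9 of 15 were lower, and its part in the lower Ppp1r15a was not tested. Cancer-like markers, at 2.09 to 8.11% of their cancer-like level in these tumor classes, move with the tissue too.

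**Figure D4:**
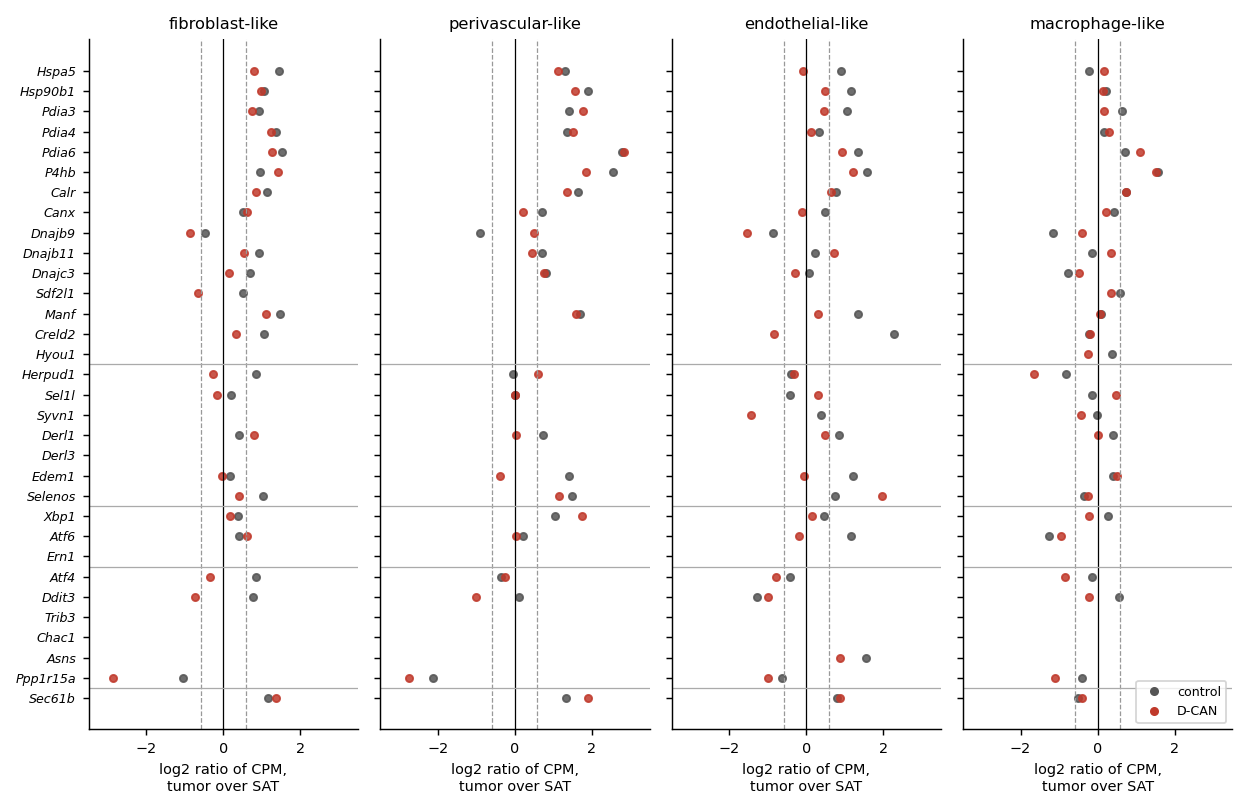
Log2 ratio of CPM in tumor over SAT for each member in the 4 classes found in both tissues, control libraries in grey and D-CAN libraries in red; dashed lines mark 1.5-fold, and members with under 20 UMIs are left blank. Most chaperones at the top lie right of 0 in fibroblast-like and perivascular-like cells, and Ppp1r15a lies left of it in all 4 classes.

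Between the D-CAN and the control library the members of cancer-like cells were nearly level. Trib3 was the 1 member called higher and 0 were lower of 31, beside 2.76% and 2.87% of all genes. Trib3 had 1.90 CPM in control and 2.90 CPM in D-CAN, a log2 ratio of 0.60 (95% interval -0.14 to 1.37) whose interval includes 0. The chaperone sum gave 0.07 (95% interval 0.06 to 0.08) and the ATF4 arm 0.04 (95% interval -0.02 to 0.11). Hspa5 gave 0.06 (95% interval 0.02 to 0.09), Xbp1 0.04 (95% interval -0.07 to 0.15), Atf4 0.11 (95% interval 0.02 to 0.21) and Ddit3 0.30 (95% interval 0.05 to 0.55). In the 5 cancer-like clusters taken singly the chaperone log2 ratio ran from -0.16 to 0.19, so that clusters went in both directions.

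The other tumor classes had few changed members, and the share over all genes is given beside each count. In endothelial-like cells Sel1l was higher and Hspa5, Manf, Creld2 and Edem1 were lower of 23, beside 13.3% higher and 10.5% lower of all genes. Sel1l had 11 UMIs in control and 22 in D-CAN, and Edem1 16 and 8. The log2 intervals of both include 0. Hspa5 had 852 CPM in control and 567 CPM in D-CAN, a log2 ratio of -0.59 (95% interval -0.88 to -0.30), and the chaperone sum gave -0.45 (95% interval -0.58 to -0.32). Cancer-like markers in these cells stood at 5.89 and 3.7% of their level in cancer-like cells, and fibroblast markers at 0.31 and 3.4% of their level in fibroblast-like cells, and their part in the lower chaperones was not tested. In fibroblast-like cells Atf6 was higher and Sel1l and Ppp1r15a were lower of 26, beside 10.1% and 10.6%, and the ATF4 arm gave -0.52 (95% interval -0.86 to -0.17), with -0.62 and -0.04 in its clusters 12 and 14. Ppp1r15a had 64.2 CPM in control and 24.9 CPM in D-CAN there. Atf6 had 10 UMIs in control and 29 in D-CAN in these cells, and its log2 interval includes 0. In perivascular-like cells Creld2, Derl1, Ddit3 and Asns were lower of 27, beside 12.5% of all genes, and in macrophage-like cells Asns alone was lower of 28, beside 8.49%, with no member higher in either class (9.78% and 6.54% of all genes). The log2 interval of Asns in macrophage-like cells includes 0.

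**Figure D5:**
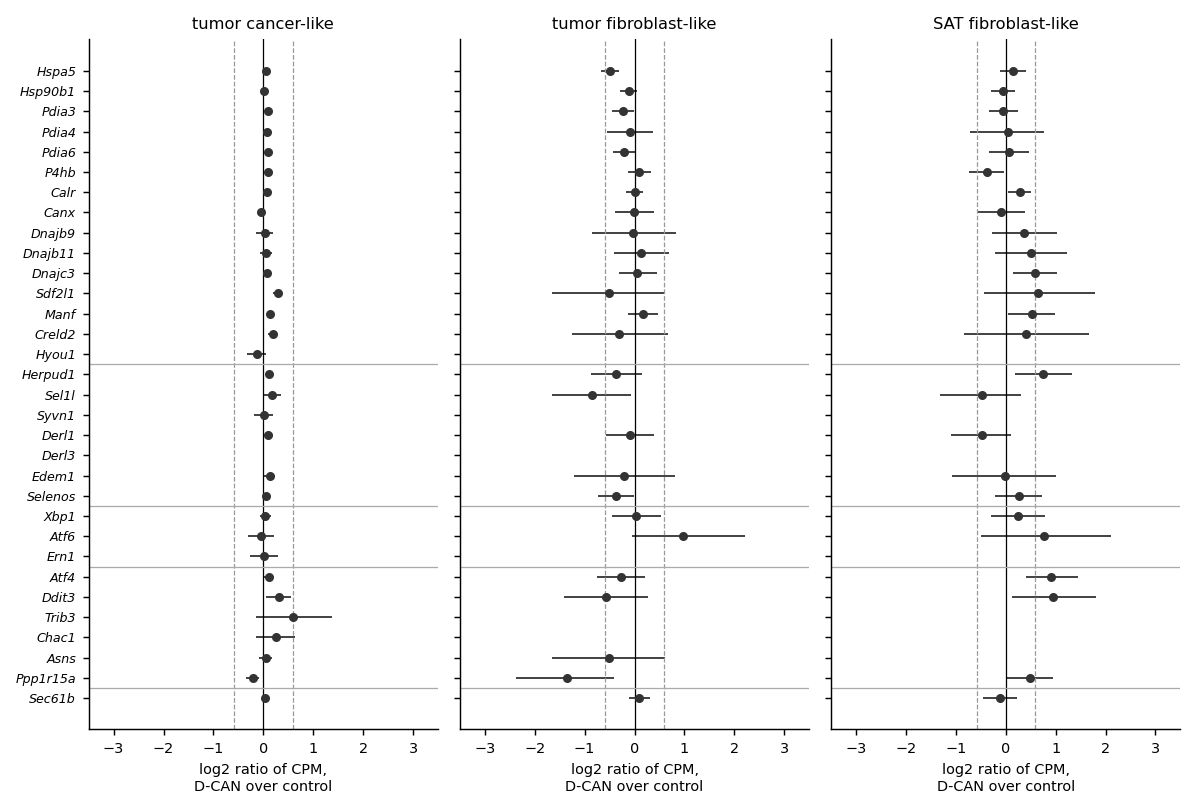
Log2 ratio of CPM in D-CAN over control for each member in cancer-like and fibroblast-like cells of the tumor and in fibroblast-like cells of SAT, with 95% counting intervals and dashed lines at 1.5-fold; each ratio compares 1 library with 1 library. Cancer-like cells sit close to 0, while Atf4 and Ddit3 sit right of 1.5-fold in SAT fibroblast-like cells.

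In SAT, fibroblast-like cells had 6 members higher in D-CAN and 0 lower of 25, beside 13.9% and 15.2% of all genes. Those higher were Dnajc3, an inhibitor of PERK and cofactor of BiP, Sdf2l1, Herpud1, Atf6, Atf4 and Ddit3. Dnajc3 just passed, at 1.503-fold. Sdf2l1 had 14 UMIs in control and 18 in D-CAN (95% interval of the log2 ratio -0.43 to 1.78). Atf6 had 10 and 14 UMIs (-0.49 to 2.12), and both of these intervals include 0. Atf4 had 93.2 CPM in control and 176 CPM in D-CAN, a log2 ratio of 0.92 (95% interval 0.40 to 1.45), and Ddit3 had 37.6 CPM in control and 72.8 CPM in D-CAN. The ATF4 arm gave 0.72 (95% interval 0.41 to 1.03) in all, and 0.71, 0.70 and 0.75 in the 3 clusters with cells from both libraries, while the chaperone sum gave 0.10 (95% interval 0.00 to 0.20). In the same cells 10 of 15 genes of the dissociation and heat shock list were higher in D-CAN, with Fos at 523 CPM in control and 1649.9 CPM in D-CAN, and median depth was 877.5 and 4739 UMIs per cell. Their part in the higher Atf4 and Ddit3 was not tested.

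The SAT endothelial-like cells had Dnajb9, Atf6 and Trib3 higher and Hyou1 and Selenos lower of 28, beside 8.09% and 8.41% of all genes. The log2 interval of Hyou1 (-2.38 to 0.30) includes 0. Dnajb9, a target of XBP1, had 68.5 CPM in control and 146 CPM in D-CAN, and Selenos had 65.0 CPM in control and 22.9 CPM in D-CAN. The class lay in clusters 4, 9 and 11 in both libraries, but in different proportions. These held 291, 116 and 154 control cells and 47, 94 and 29 D-CAN cells. Within these clusters the chaperone sum gave 0.29, 0.18 and 0.13 and the ATF4 arm 0.30, 0.68 and 0.30. In the same class 5 of 15 dissociation and heat shock genes were higher in D-CAN, and the part of either in the member calls was not tested. Perivascular-like cells of SAT had Dnajb9, Herpud1 and Xbp1 lower and Edem1 higher of 23, beside 14.6% lower and 19% higher of all genes. The log2 intervals of Herpud1 (-1.58 to 0.20), Xbp1 (-1.72 to 0.33) and Edem1 (-0.04 to 2.96) include 0. Fibroblast-like and perivascular-like cells together had Sdf2l1 and Ddit3 higher and Hyou1 lower of 27, beside 13.6% and 12.3%, and the same union in tumor had none higher and Hyou1, Sel1l, Ddit3, Asns and Ppp1r15a lower of 28, beside 6.87% and 9.32%. The intervals of Sdf2l1 (-0.24 to 1.81) and Hyou1 (-2.83 to 0.19) in the SAT union include 0, as does that of Hyou1 (-1.86 to 0.10) in tumor.

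Among the immune cells of SAT, B cell-like cells had Sdf2l1 and Ddit3 higher and Pdia4, Creld2 and Sel1l lower of 27, beside 6.13% and 9.57% of all genes. The log2 intervals of Sdf2l1 (-0.23 to 1.71) and Creld2 (-1.84 to 0.58) include 0. In the same cells 3 of 14 dissociation and heat shock genes were higher in D-CAN, Fos at 373 CPM in control and 755 CPM in D-CAN, Fosb and Junb, and the cells of clusters 0 and 3 numbered 478 and 179 in control and 331 and 296 in D-CAN. Their part in the higher Ddit3 was not tested. T cell-like cells had none called of 28, beside 5.05% higher and 7.26% lower. Macrophage-like cells had Syvn1 and Ppp1r15a higher of 26 (beside 14.5%) and dendritic-like cells Herpud1 and Selenos of 17 (beside 14.8%), with none lower in either. The intervals of Syvn1 (-0.79 to 2.21) and Selenos (-0.34 to 2.55) include 0. In macrophage-like cells 4 of 15 dissociation and heat shock genes were higher too, and their part in Ppp1r15a was not tested. Ig-secreting cells had Dnajb9, Sdf2l1 and Manf higher and Hspa5 and P4hb lower of 23, beside 14.5% and 25.1%. The intervals of Dnajb9 (-0.77 to 2.36), Sdf2l1 (-0.19 to 1.48) and P4hb (-2.50 to 0.03) include 0. Without the deepest cell of each library Sdf2l1 had 299.5 CPM in control and 304 CPM in D-CAN, P4hb 149.8 and 112 CPM, and Dnajb9 112 and 160.3 CPM, and none of these passed 1.5-fold. Manf, at 449 and 1009.6 CPM, and Hspa5, at 1460.1 and 897 CPM, did so without that cell. Pdia3, higher in D-CAN at 149.8 and 353 CPM, and Pdia4, lower at 337 and 224 CPM, passed only then.

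Cluster 8 had the most members called, 8 higher and 1 lower of 25, beside 16.5% and 10.3% of all genes. The log2 intervals of Sel1l (-0.45 to 1.87), called higher, and Syvn1 (-1.65 to 0.26), called lower, include 0. Hspa5 had 369 CPM in control and 558 CPM in D-CAN and Calr 354 CPM in control and 565 CPM in D-CAN, and the chaperone sum gave 0.68 (95% interval 0.57 to 0.80). Its median depth was 1267 UMIs per cell in control and 8872.5 in D-CAN, and at 1000 UMIs per cell the median cell had 2 chaperone UMIs in control (91 cells used, 58 left out) and 4 in D-CAN (55 used, 1 left out). Whether the cluster holds the same kinds of cells in both libraries was not tested.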

How the data were processed

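Single cells of 4 mouse libraries (1 each of tumor and SAT, control and D-CAN) were analysed. The authors deposited UMI counts per gene and cell, unnormalized, for the cells called by Cell Ranger; the submitters' processing notes name Cell Ranger 3.1.0, STAR 2.6 and the genome build mm10. The file header of the SAT D-CAN library names Cell Ranger 3.0.2 and the other headers 3.1.0, so in SAT the treatment and this version cannot be told apart. Cells with at least 200 genes were kept (8986 of 9128). Clustering of the merged libraries of each tissue used Seurat 5.3.0 (R 4.3.3) with 2000 variable genes (members left out), 10 components and resolution 0.8. Naming a cluster took 3 detected markers of a class, each with a UMI in at least 10% of its cells and at least 25% of the CPM found in the highest cluster. These thresholds and the Ig threshold were chosen with the clusters in view. Scrublet in scanpy 1.11.5 marked 16 of 9128 cells where 178 were expected and is taken not to have worked, so no doublets were removed in the results given.

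UMIs were summed per class and library in Python 3.11.15 (numpy 2.4.6, scipy 1.17.1, pandas 2.3.3) and divided by all UMIs of the class. Ratios had 0.5 UMI added and exact binomial intervals (95%), CPM exact Poisson intervals, and the code was tested on simulated data. Intervals cover counting error only. The named-gene rule took Hspa5, Xbp1, Atf4 and Ddit3 in each class comparison, the 4 highest and the 4 lowest members, and the 3 most and 3 least changed genes of a list, and allowed any member to be named. The members and lists were chosen with earlier results of these data known. Alternatives changed the cell filters, clustering, CPM, least UMIs and fold. Depth per library is given in the report; deep classes such as cancer-like cells give narrow intervals, and Ig-secreting cells wide ones.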

Additional observations from a re-analysis of the deposited data

Results flagged for a closer look

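For 3 sums over members the D-CAN library lay on opposite sides of the control library in the tissues, with counting intervals that do not include 0. The chaperone sum of endothelial-like cells gave a log2 ratio of D-CAN over control of -0.45 (95% interval -0.58 to -0.32) in tumor and 0.16 (0.08 to 0.25) in SAT, a difference of 0.61. The SAT class lay in clusters 4, 9 and 11 in both libraries, but in different proportions (291, 116 and 154 control and 47, 94 and 29 D-CAN cells). Within these clusters the ratio was 0.29, 0.18 and 0.13. The chaperone sum of fibroblast-like cells gave -0.13 (-0.20 to -0.06) in tumor and 0.10 (0.00 to 0.20) in SAT, a difference of 0.23. The ATF4 arm of fibroblast-like cells gave -0.52 (-0.86 to -0.17) in tumor and 0.72 (0.41 to 1.03) in SAT, a difference of 1.23. By cluster the ATF4 arm gave -0.62 and -0.04 in tumor and 0.71, 0.70 and 0.75 in SAT, where 10 of 15 dissociation and heat shock genes were higher in D-CAN. The values compare 1 library with 1 library in each tissue, and the difference between tissues was not tested.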

How the results depend on the processing

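With 1 library per group no difference between libraries could be tested, and leaving out a replicate was not possible. No paired analysis was possible because each group has 1 library and the labels give no replicate numbers. Only some counts between classes were rerun. In tumor these were chaperones and ATF4-arm genes higher in cancer-like than macrophage-like cells, and chaperones higher in fibroblast-like than cancer-like cells. In SAT they were chaperones higher in fibroblast-like, and members higher in Ig-secreting, than in B cell-like cells. Each moved by no more than 1.5 times under every alternative run, as did the count of 0 members lower in D-CAN in cancer-like cells. Counts of the other class comparisons were not rerun. The chaperones higher in cancer-like than macrophage-like cells numbered 5 to 9, and the members higher in Ig-secreting than B cell-like cells 17 to 23. The call of Trib3 in cancer-like cells ended (0 members in place of 1) with at least 500 genes per cell, at most 20% mitochondrial UMIs, the highest doublet scores left out, the members kept among the variable genes, resolution 0.4, 20 components, a fold of 2, ratios centred on the median gene, or cancer-like cluster 5 left out. In cancer-like cells the chaperone log2 ratio of 0.0692 became 0.0214 as a mean over cells, 0.0526 without mitochondrial UMIs and 0.0345 when centred, and the ATF4-arm ratio of 0.04 became -0.0514 as a mean over cells. For the stromal cells of SAT, the 2 members higher in D-CAN became 5 with 500 genes, 4 at resolution 1.2, 4 with 20 components, 1 as a mean over cells, 1 with at least 50 UMIs and 0 at a fold of 2. The 1 lower became 0 with 500 genes, 0 at resolution 1.2, 0 with at least 50 UMIs, 2 as a mean over cells and 2 with no minimum beyond 1 UMI. The cause of these changes was not tested. The alternatives that leave out clusters 5, 7 or 16 or the deepest Ig-secreting cell, and the Ig threshold of 5%, were added after seeing the data.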

Other observations

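A pair of tumor clusters stayed unnamed and entered no comparison. Cluster 2 held 347 control and 132 D-CAN cells with a median of 50 and 61.3% mitochondrial UMIs, and its chaperone sum was 4214 and 2989 CPM. Cluster 9 held 130 and 56 cells with 27.0 and 29.2% mitochondrial UMIs, and its chaperone sum was 4983 and 4166 CPM. The tumor also held 2 Ig-secreting cells in control and 1 in D-CAN, with chaperone sums of 8161 CPM in control and 5312 CPM in D-CAN.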
